A study of Mus musculus with 6 samples.

Results

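The nuclear-encoded genes of the respiratory chain and the mitochondrial ATP synthase were examined in the cerebral cortex of mice that lack HtrA2. They were taken as the probe sets with a single gene symbol that begins with Nduf, Uqcr, Atp5 or Cox and a digit, or that is Sdha, Sdhb, Sdhc or Sdhd. This gave 98 genes measured by 197 probe sets, of 18193 named genes and 45037 probe sets on the array. By complex there were 34 genes of complex I, 4 of complex II, 8 of complex III, 17 of complex IV, 17 of the ATP synthase and 15 assembly factors, which help to build the complexes but are not part of them. The other 3 genes, Cox16, Cox7a2l and Ndufa4l2, match the symbols without being assigned to a complex here. HtrA2 (Omi) is a mitochondrial serine protease that resides between the outer and inner membranes. The comparison was between wild type mice and HtrA2 knockout littermates at postnatal day 29, with 3 arrays of total cortical RNA per genotype, hybridised to an Affymetrix mouse array. The labels give no strain, sex, litter or details of the knockout allele, and do not say whether the arrays come from different animals; p-values here therefore reflect array-to-array spread, which may be in part technical. Y-linked genes were low in wild type replicate 1 and knockout replicate 3 (mean log2 level 3.89 and 3.93, against 5.90 to 6.00 in the other 4 arrays), so each group holds RNA of both sexes and of at least 2 animals. In whole cortex, fewer cells of a type and less RNA per cell cannot be told apart.

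The respiratory chain passes electrons from NADH (complex I) and succinate (complex II) through ubiquinone to complex III, and from there by cytochrome c to complex IV, which reduces oxygen. Complexes I, III and IV pump protons across the inner mitochondrial membrane, and the ATP synthase makes ATP as the protons return. Most subunits are encoded in the nucleus, a few in mitochondrial DNA, and neurons depend on this pathway for most of their ATP. Some subunits of complex IV come in isoforms encoded by separate genes, among them forms typical of heart and skeletal muscle.

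The 2 Htra2 probe sets separated the genotypes in opposite directions. One fell by 2.27 ± 0.17 on the log2 scale (SE, n = 3 per group) and the other rose by 1.11 ± 0.08, and it is not known here which of them targets deleted sequence. Each of the 7 neuronal marker genes had a probe set with a mean over all arrays of 9.96 or more on the log2 scale. Several marker lists differed in mean level between the genotypes, taken over the probe set of highest signal of each gene. The neuronal list lay at −0.16 to −0.10 relative to the wild type mean in the knockout arrays. In the wild type arrays it lay at −0.01 to 0.01 (0 of 15 probe sets past the test). The excitatory neuron list lay at −0.34 to −0.23 against −0.02 to 0.02, with Neurod6 lower (1 of 9 probe sets), and the inhibitory neuron list at −0.13 to −0.04 against −0.01 to 0.01 (0 of 7). In the astrocyte list, at −0.19 to −0.09 against −0.03 to 0.03, 2 of 22 probe sets passed as higher, both of Gfap, and 3 as lower, of Aqp4 and S100b. The microglial list lay between −0.53 and −0.37 in the knockout and between −0.12 and 0.10 in the wild type, and 3 of its 9 probe sets passed as lower. The oligodendrocyte list lay between −0.39 and −0.27 against −0.07 to 0.08 (1 of 16 probe sets lower), and the meningeal list between 0.14 and 0.67 against −0.12 to 0.18 (0 of 11 past the test). The endothelial list lay at 0.12 to 0.20 against −0.07 to 0.04 (0 of 8). The blood list lay at −0.66 to −0.25 against −0.02 to 0.02, with Alas2 lower (1 of 2 probe sets). A list of striatal genes lay at 0.04 to 0.08 against −0.09 to 0.12 (0 of 7). Choroid plexus RNA was highest in wild type replicate 2, where Ttr read 12.86 at its brightest probe set. At that probe set the other wild type arrays read 8.46 and 8.62 and the knockout arrays 7.32 to 7.61. At another Ttr probe set, wild type replicates 1 and 3 read 7.61 and 8.30 and the knockout arrays 5.84, 4.88 and 4.66. The choroid plexus list lay at −0.95 to −0.71 against −0.67 to 1.08 (0 of 9 past the test). Every knockout array lay below every wild type array at 5 of the 9, among them every Ttr probe set (11.6% of all probe sets did so). The part of these cell types in the results was not tested. Knockout replicate 2 stood apart, with an array weight of 0.25 against 0.889 to 2.62 for the others; it was the lowest of the 6 arrays at 61 of the 197 probe sets (31.0%, against 21.2% of all probe sets).

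Few of these genes changed between the genotypes. Of the 197 probe sets, 4 passed the test as higher in the knockout (limma, Benjamini-Hochberg adjusted p under 0.05 over all 45037 probe sets), 2 each for Cox6a2 and Cox7a2l, and 3 passed as lower, 1 each for Ndufs4, Ndufab1 and Atp5g1. That is 2.03% higher and 1.52% lower, where 0.884% of all probe sets were called higher and 0.884% lower. At an unadjusted p under 0.05 there were 33 (16.8%), against 16.9% of all probe sets. The median log2 difference of the knockout from the wild type was −0.02, against 0.00 over all probe sets, and 85.8% lay within 0.2 of zero, against 78.2% of all. Every knockout array lay above every wild type array at 31 probe sets (11.6% of all probe sets did so) and below at 41 (11.6% of all). Most of the 197 have high signal: of the 142 that fall in the brightest 25% of the array, 43.0% separated the genotypes in 1 direction or the other, against 40.5% of all probe sets in that range. There, 3 of the 142 were called higher and 0 lower, against 1.96% and 1.58% of all. By direction, 18.3% separated as higher and 24.6% as lower, against 21.5% and 19.0% of all in that range. An unadjusted p under 0.05 was reached by 18.3% of the 142 against 27.7% of all, and 87.3% lay within 0.2 of zero against 71.1%. Within the brightest 25% the differences of the 142 were thus more often small than those of all probe sets there, which was described and not tested. Signal was not matched within that range. Of the 57 genes with several probe sets, 31 had the same sign at all of them and 26 did not.

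**Figure D1:**
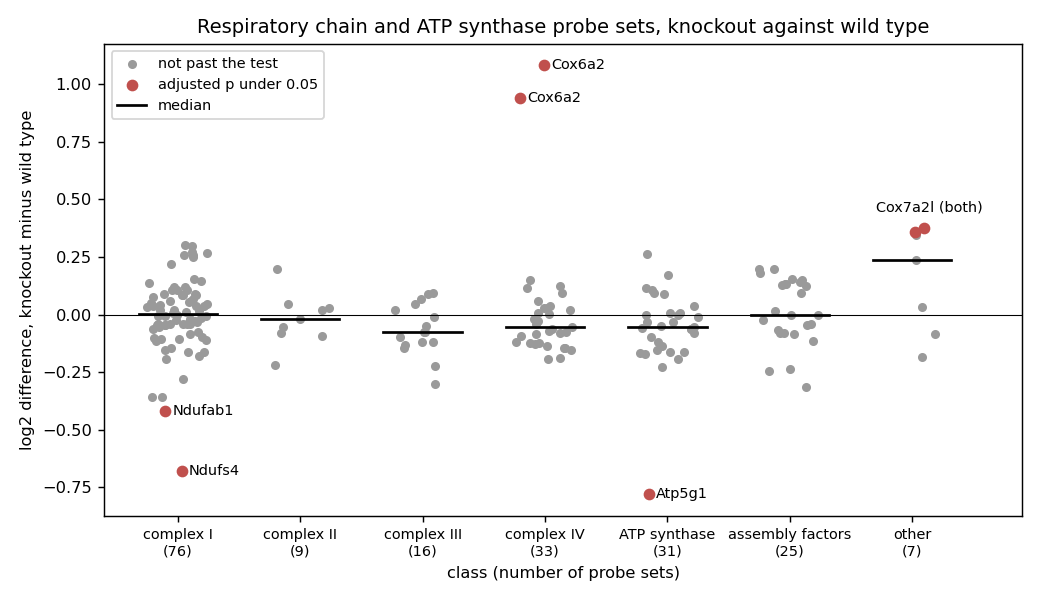
Log2 difference between knockout and wild type means for each of the 197 probe sets (points), by complex, with the class median as a bar. Red points have an adjusted p under 0.05: both Cox6a2 probe sets stand near 1, 2 of Cox7a2l below 0.4, and 1 each of Ndufs4, Ndufab1 and Atp5g1 below −0.4.

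Complex I takes electrons from NADH on a flavin and hands them along a chain of iron-sulfur clusters to ubiquinone; 6 of its core genes were measured. None of their 16 probe sets passed the test, 13 had a positive difference, and the median was 0.09. Every knockout array lay above every wild type array at 7 of the 16 (43.8%, against 11.6% of all probe sets and 21.5% of the brightest 25%) and below at 0. The largest differences were in Ndufv1, the flavin subunit that binds NADH, and Ndufs7, which holds the last iron-sulfur cluster before ubiquinone. For 1 Ndufv1 probe set the wild type arrays read 11.50, 11.47 and 11.39 and the knockout arrays 11.79, 11.66 and 11.81 on the log2 scale. The groups did not overlap there or at the other 2 Ndufv1 probe sets, and the 3 differences were 0.30 ± 0.08, 0.26 ± 0.07 and 0.27 ± 0.07, with adjusted p = 0.101, 0.104 and 0.122. Ndufs7 read 11.23, 11.22 and 11.29 in wild type and 11.44, 11.53 and 11.53 in knockout at 1 probe set. Its 2 probe sets, again without overlap, differed by 0.25 ± 0.07 (adjusted p = 0.127) and 0.26 ± 0.08 (adjusted p = 0.158). The other core genes differed less: Ndufv2, next to the flavin subunit, by 0.05 to 0.09 at 3 probe sets, Ndufs3 by 0.09, Ndufs1 by −0.01, and the iron-sulfur subunit Ndufs8 by −0.01 to 0.09 at 6 probe sets. Without knockout replicate 2, 2 of the 3 Ndufv1 probe sets passed the test, in a setting where 6.74% of all probe sets passed and 8.12% of these 197.

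**Figure D2:**
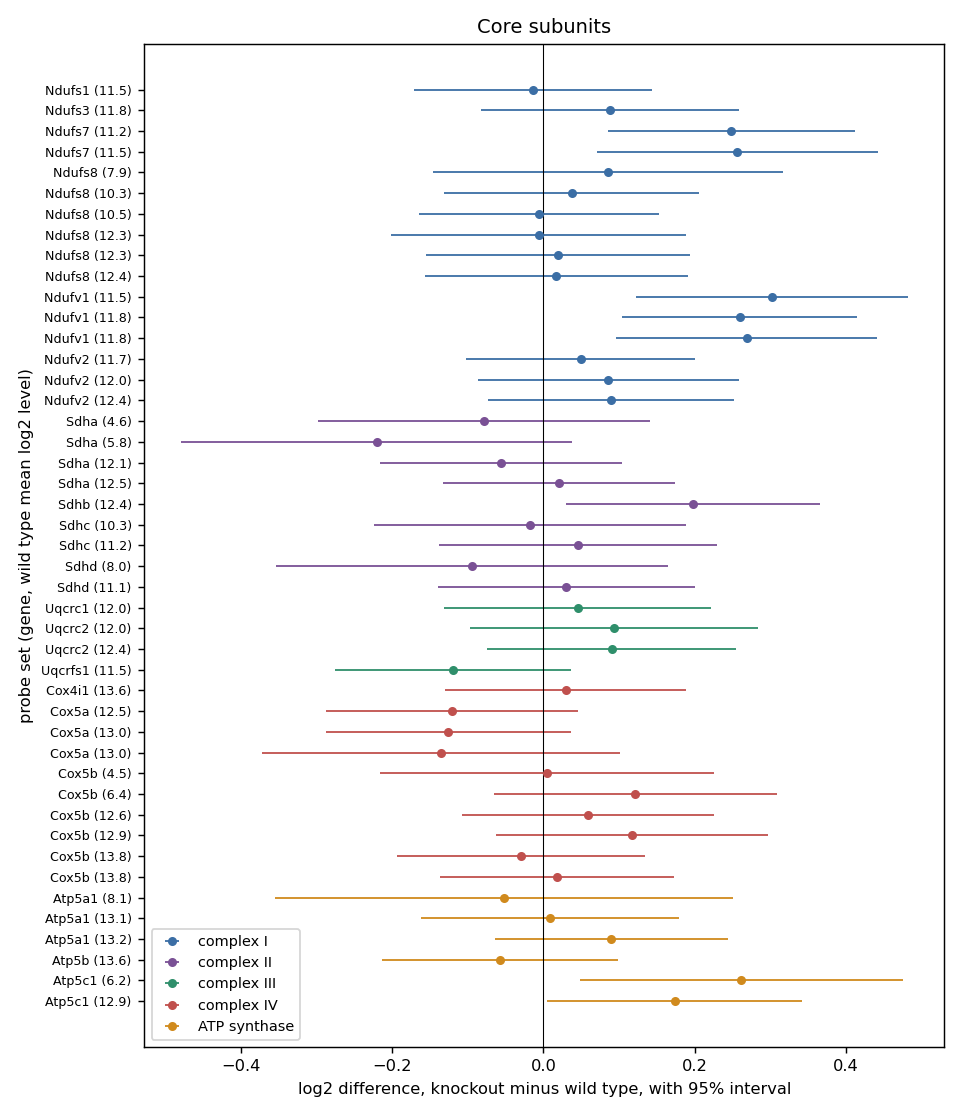
Log2 difference between knockout and wild type with its 95% interval for each probe set of the subunits drawn as core, coloured by complex, with the wild type mean in brackets. Those drawn for complex IV are Cox4i1, Cox5a and Cox5b, none of which is in its catalytic core. The intervals of Ndufv1, Ndufs7, Sdhb and Atp5c1 lie above 0, none passed the test after adjustment, and all other intervals drawn include 0.

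The accessory subunits of complex I, which surround and stabilise the core, numbered 28 genes and 60 probe sets. Of these, 25 had a positive and 35 a negative difference (median −0.03), and 2 passed the test, both lower. Ndufs4, an accessory subunit of the electron input arm whose loss causes encephalopathy in mice and humans, read 8.99, 8.93 and 8.90 in wild type and 8.40, 8.08 and 8.31 in knockout at 1 of its 4 probe sets. All knockout arrays were lower there, with a fall of 0.68 ± 0.10 on the log2 scale (adjusted p = 0.02). Its other 3 probe sets did not follow, with differences of 0.11 ± 0.07, 0.12 ± 0.09 and −0.06 ± 0.11, and at the one with the highest signal every knockout array (10.47, 10.52 and 10.52) was above every wild type array (10.45, 10.38 and 10.34). The fall passed with knockout replicate 1 or 2 left out (adjusted p = 0.0358 and 0.00944). It did not pass without knockout replicate 3 (0.0747) or without wild type replicate 1, 2 or 3 (0.124, 0.125 and 0.0785).

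Ndufab1, the mitochondrial acyl carrier protein that is also a complex I subunit, fell at 1 of 5 probe sets, from 4.40, 4.37 and 4.37 to 3.92, 3.90 and 4.07 (−0.42 ± 0.08, adjusted p = 0.0417). This signal is low: only 13.1% of probe sets on the array were dimmer. The other 4 differed by −0.19 to −0.02, none past the test, and the one with the highest signal by −0.04 ± 0.08. The fall passed without knockout replicate 2 (adjusted p = 0.0298). Leaving out knockout replicate 1 or 3 gave 0.102 and 0.0791, and leaving out wild type replicate 1, 2 or 3 gave 0.197, 0.204 and 0.12.

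Ndufa1, a small membrane-arm subunit needed to build complex I, was the accessory gene nearest to the threshold among those that missed it. It read 12.97, 12.94 and 12.89 in wild type and 12.61, 12.51 and 12.60 in knockout, a difference of −0.36 ± 0.07 (adjusted p = 0.051), with no overlap. Ndufa10 differed by −0.36 ± 0.09 (adjusted p = 0.0884) at 1 probe set and by 0.04 ± 0.07 at the other. On the higher side, Ndufa6 read 11.16, 11.06 and 11.10 in wild type and 11.40, 11.34 and 11.47 in knockout (0.30 ± 0.07, adjusted p = 0.0924). Ndufa2 differed by 0.27 ± 0.08 (adjusted p = 0.124), also without overlap. Accessory subunits of 1 complex thus had differences of both signs and similar size. Without knockout replicate 2, Ndufa1, Ndufa2, Ndufa6 and the dimmer Ndufa10 probe set passed the test. In that setting 6.74% of all probe sets passed and 8.12% of these 197. None of the 4 genes passed with any other single array left out.

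Complex II oxidises succinate and is also an enzyme of the citric acid cycle; all 4 of its genes were measured, by 9 probe sets, and 0 passed the test. Sdhb, the iron-sulfur subunit, read 12.44, 12.37 and 12.38 in wild type and 12.54, 12.67 and 12.58 in knockout. The groups did not overlap, and the difference was 0.20 ± 0.07 (adjusted p = 0.222). The flavin subunit Sdha differed by −0.22 to 0.02 over 4 probe sets, the membrane anchor Sdhc by −0.02 and 0.05, and the anchor Sdhd by −0.09 and 0.03, all with overlapping groups.

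Complex III passes electrons from ubiquinol to cytochrome c, and 0 of its 16 probe sets passed the test. The groups separated at 6, all lower in the knockout (37.5%, against 11.6% of all probe sets and 19.0% of the brightest 25%), and the median difference was −0.08. Of these 6, 5 belong to the small subunits, 10 of whose 12 probe sets had a negative difference. Uqcr11 read 11.89, 11.84 and 11.78 in wild type and 11.48, 11.53 and 11.59 in knockout, a difference of −0.30 ± 0.07 (adjusted p = 0.0868). Uqcr10 differed by −0.22 ± 0.08, −0.13 ± 0.07 and −0.08 ± 0.08 at 3 probe sets. Among the core genes, Uqcrfs1, the Rieske iron-sulfur protein, differed by −0.12 ± 0.07 without overlap, Uqcrc1 by 0.05 ± 0.08 and Uqcrc2 by 0.09 at both probe sets.

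Cox6a2 had the clearest change of the pathway. It encodes the heart and skeletal muscle form of subunit VIa of complex IV (cytochrome c oxidase), a subunit whose other form, Cox6a1, is found in most tissues. At 1 probe set the wild type arrays read 8.40, 8.43 and 8.52 and the knockout arrays 9.53, 9.61 and 9.46. At the other they read 6.73, 6.47 and 6.59 against 7.61, 7.52 and 7.47. Every knockout array was higher than every wild type array by a margin wider than the spread within either group. Cox6a2 rose by 1.08 ± 0.08 on the log2 scale (2.12-fold, 95% interval of the log2 difference 0.91 to 1.26, adjusted p = 0.00173) and by 0.94 ± 0.09 (1.92-fold, 0.73 to 1.15, adjusted p = 0.00507). The second probe set carries the suffix that marks possible hybridisation to other transcripts. Whichever array was left out, both stayed past the test, with adjusted p of at most 0.024 and 0.0425.

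Cox6a1 gave no such difference: its probe sets differed by −0.04 ± 0.07 (95% interval −0.20 to 0.12) and −0.09 ± 0.07 (−0.25 to 0.07). Neither passed the test, and the difference between the changes of the 2 isoforms was not itself tested. Other tissue-restricted forms of complex IV subunits also had small differences: Cox7a1, the muscle form of subunit VIIa, differed by −0.08 ± 0.13 and Cox8b, the muscle form of subunit VIII, by −0.02 ± 0.07. Cox4i2, a form of subunit IV found mainly in lung, differed by 0.09 ± 0.10, and the testis forms Cox6b2, Cox7b2 and Cox8c by −0.07, −0.14 and −0.06 to 0.04. None of these passed the test. A list of 13 muscle genes, chosen after the values were seen, had 0 of 21 probe sets past the test and a median difference of 0.01. Every knockout array lay above every wild type array at 4 of the 21 and below at 0, against 11.6% of all probe sets in each direction. The mean level of the list lay at 0.07, −0.02 and −0.05 around the wild type mean in the wild type arrays and at 0.09, −0.03 and 0.17 in the knockout arrays. Its largest differences were at 2 probe sets of Tnnt2, cardiac troponin T, at 0.86 ± 0.27 (adjusted p = 0.162) and 0.81 ± 0.34 (adjusted p = 0.282). At the first the knockout arrays read 6.51, 6.16 and 7.41 against 5.88, 5.88 and 5.74, without overlap. At the second they read 7.16, 6.15 and 7.76 against 6.26, 6.29 and 6.10, with replicate 2 among the wild type arrays. Actn3 and 1 Myh4 probe set, both of fast muscle, differed by 0.50 ± 0.15 and 0.34 ± 0.10 without overlap. The part of muscle RNA in the rise of Cox6a2 was not tested. Parvalbumin (Pvalb), the marker of an interneuron class that is known to contain Cox6a2, read 10.55, 10.41 and 10.33 in wild type and 9.87, 10.01 and 10.07 in knockout (−0.45 ± 0.09, adjusted p = 0.0548). Of the other inhibitory neuron markers, Sst differed by −0.30 ± 0.07, Gad1 by 0.03 and 0.07, Gad2 by 0.03 and −0.16 and Vip by 0.18 ± 0.12. Over all 7 probe sets of the list the median was 0.03, with 0 past the test. The level given above for this list used only the probe set of highest signal of each gene.

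The remaining subunits of complex IV had small differences, mostly negative. Of the 14 probe sets of Ndufa4 and the widespread forms of subunits VI to VIII, 11 were negative and 0 passed the test. At 6 the genotypes separated as lower (42.9%, against 11.6% of all probe sets and 19.0% of the brightest 25%). Cox6b1 read 13.53, 13.50 and 13.49 in wild type and 13.35, 13.27 and 13.32 in knockout (−0.20 ± 0.07, adjusted p = 0.196). Cox7a2, the main brain form of subunit VIIa, differed by −0.19 ± 0.07 (adjusted p = 0.208) and −0.15 ± 0.07, also without overlap. Cox8a differed by −0.13 at both of its bright probe sets, and Ndufa4, a former complex I subunit now placed in complex IV, by −0.09 ± 0.08. Of subunits IV and V, Cox4i1 differed by 0.03 ± 0.07, Cox5a by −0.14 to −0.12 at 3 probe sets and Cox5b by −0.03 to 0.12 at 6. None of these passed the test.

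Cox7a2l, a relative of Cox7a2 whose product links complexes III and IV in supercomplexes, was the other gene that rose. At 1 probe set it read 10.97, 11.04 and 11.06 in wild type and 11.39, 11.44 and 11.37 in knockout. At the next it read 11.62, 11.66 and 11.63 against 11.96, 12.03 and 11.99, and at the third 11.70, 11.73 and 11.71 against 12.09, 11.99 and 12.10. The groups did not overlap at any of them. The differences were 0.38 ± 0.07 (1.30-fold, adjusted p = 0.0436), 0.36 ± 0.07 (1.28-fold, adjusted p = 0.0453) and 0.34 ± 0.07 (1.27-fold, adjusted p = 0.0575), so that 2 of 3 passed. The second carries the suffix that marks possible hybridisation to other transcripts. The third, which did not pass, has the highest signal. Over all alternative settings the first difference stayed between 0.35 and 0.39, but the call did not hold throughout. Leaving out knockout replicate 1 gave adjusted p = 0.0951 and 0.087 at the 2 that passed, knockout replicate 3 gave 0.132 and 0.142, and wild type replicates 1, 2 and 3 gave 0.211 and 0.208, 0.214 and 0.219, and 0.113 and 0.132. Without knockout replicate 2 both passed, at 0.0293 and 0.0291. Ndufa4l2, the relative of Ndufa4, differed by 0.03 ± 0.08, and Cox16, which acts in complex IV assembly, by −0.18 to 0.24 at 3 probe sets, none past the test.

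**Figure D3:**
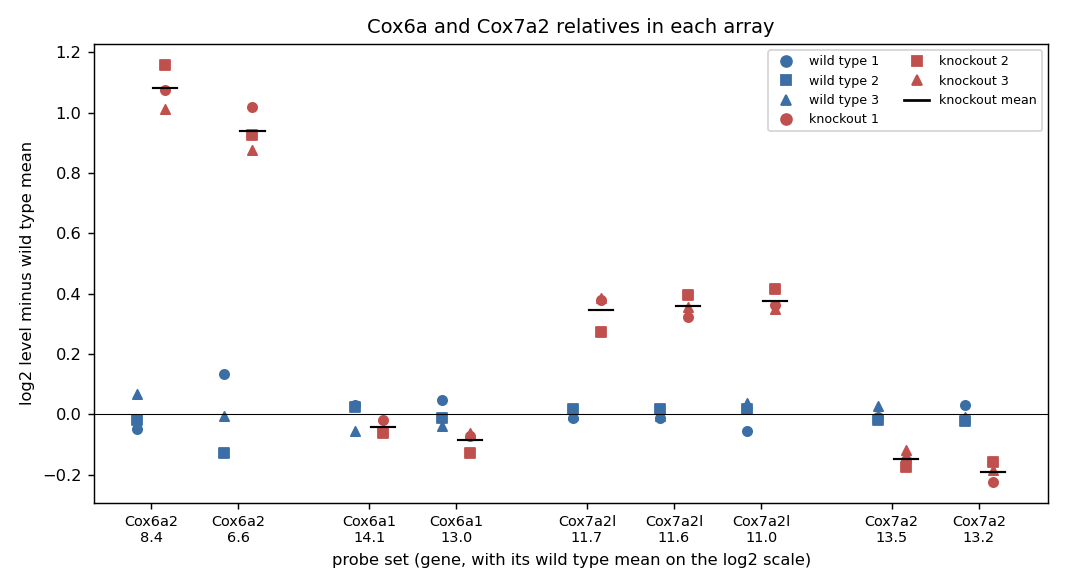
Log2 level of each array minus the wild type mean for the probe sets of Cox6a2, Cox6a1, Cox7a2l and Cox7a2 (blue, wild type; red, knockout; symbols give the replicate number; bars give the knockout mean; the wild type mean stands under each gene). The knockout means of both Cox6a2 probe sets lie near 1 and those of the 3 of Cox7a2l between 0.3 and 0.4, while those of Cox6a1 and Cox7a2 lie within 0.2 below 0.

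The 250 bases before the transcription start of Cox7a2l, which rose, and of its relative Cox7a2 and of Cox6a1, which did not, are shown to let their promoters be compared; capitals mark matches to the NRF1 core GCATGCG or the SP and KLF box GGGCGGG on either strand. All 3 lie on the minus strand of GRCm38.p6 (RefSeq), at chr17:83514334-83514583, chr9:79759854-79760103 and chr5:115348959-115349208 in that order. A Cox6a2 promoter was not analysed here.
Cox7a2l: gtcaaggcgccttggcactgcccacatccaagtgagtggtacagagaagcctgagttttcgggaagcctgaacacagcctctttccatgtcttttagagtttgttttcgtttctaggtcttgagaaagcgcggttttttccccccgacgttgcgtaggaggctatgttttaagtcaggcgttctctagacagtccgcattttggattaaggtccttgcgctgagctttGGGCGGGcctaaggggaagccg
Cox7a2: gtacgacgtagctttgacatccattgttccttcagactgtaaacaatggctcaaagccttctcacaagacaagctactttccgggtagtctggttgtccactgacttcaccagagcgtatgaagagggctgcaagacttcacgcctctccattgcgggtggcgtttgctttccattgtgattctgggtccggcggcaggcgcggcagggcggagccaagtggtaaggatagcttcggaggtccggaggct
Cox6a1: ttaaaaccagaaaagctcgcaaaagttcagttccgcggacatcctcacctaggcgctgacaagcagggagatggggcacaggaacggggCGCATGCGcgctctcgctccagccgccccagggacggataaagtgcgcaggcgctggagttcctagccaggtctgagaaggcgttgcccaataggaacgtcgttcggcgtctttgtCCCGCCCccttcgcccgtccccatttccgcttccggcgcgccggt
Cox7a2l held 1 SP and KLF box, 22 bases before the start. Cox6a1 held the NRF1 core on both strands, the 2 matches overlapping, and an SP and KLF box on the minus strand 45 bases before the start. In the Cox7a2 window none of the 5 motifs searched was found.

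Across the pathway, RefSeq promoter windows of 300 bases (250 before and 50 after the start) were found for 80 of the 98 genes, 86 windows in all, and were searched on both strands. The NRF1 core, bound by a factor known to drive many respiratory genes, stood in 14.0% of these windows and in 3.58% of all 32851 RefSeq windows. The ETS core CGGAAGT, the site of GABPA (NRF2), stood in 17.4% against 6.42%, and the YY1 core ATGGCGG in 16.3% against 4.05%. The SP and KLF box stood in 39.5% against 25.6%, and the TATA box TATAAA in 11.6% against 13.6%. The classes differed, with the YY1 core in 24.2% of complex I windows and in 0 of 12 complex IV windows, and the NRF1 core in 22.2% of ATP synthase windows and 6.06% of complex I windows. These are matches of letters only, and the number of windows per class is small.

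In the ATP synthase, the alpha, beta and gamma subunits were taken as core, and 4 of their 6 probe sets had a positive difference. Of the 25 probe sets of the other 14 genes, 20 had a negative one. Among the core genes, Atp5c1, the gamma subunit that forms the central shaft, differed by 0.26 ± 0.09 (adjusted p = 0.203) and 0.17 ± 0.07 (adjusted p = 0.281), both without overlap. Atp5a1, the alpha subunit, differed by 0.09, −0.05 and 0.01 at 3 probe sets, and Atp5b, the catalytic beta subunit, by −0.06 ± 0.07. Outside the core, 12 of the 25 probe sets had every knockout array below every wild type array (48.0%, against 11.6% of all probe sets and 19.0% of the brightest 25%), and 0 had every knockout array above. Taking the probe set of highest signal for each of the 17 genes, 14 differences were negative, with a median of −0.08. They included Atp5d, the delta subunit of the catalytic head, at −0.19 ± 0.07. At its other probe set Atp5d read 11.92, 11.95 and 11.94 in wild type and 11.73, 11.66 and 11.73 in knockout (−0.23 ± 0.07, adjusted p = 0.139). Atp5e, the epsilon subunit, differed by −0.15 ± 0.07, and Atp5j2, Atp5l and Atp5mpl, small subunits of the membrane part, by up to −0.17. None of these passed the test.

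Atp5g1, Atp5g2 and Atp5g3 encode the same mature c subunit of the proton-driven ring from separate genes. Atp5g1 fell at 1 of 2 probe sets, from 6.38, 6.33 and 6.42 to 5.92, 5.31 and 5.57, with all knockout arrays lower (−0.78 ± 0.14, adjusted p = 0.0405). At the other probe set, of higher signal, it read 11.75, 11.71 and 11.74 in wild type and 11.57, 11.69 and 11.68 in knockout, a difference of −0.08 ± 0.07 that did not pass. Atp5g2 differed by 0.10 to 0.11 at 3 probe sets and Atp5g3 by −0.12 ± 0.07, none past the test. The fall of Atp5g1 passed without knockout replicate 1 or 2 (adjusted p = 0.0233 and 0.0218). It did not pass without knockout replicate 3 (0.142) or without wild type replicate 1, 2 or 3 (0.179, 0.174 and 0.127). For Ndufs4, Ndufab1 and Atp5g1 alike, the probe set of highest signal did not pass the test, so the falls rest on 1 probe set per gene.

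**Figure D4:**
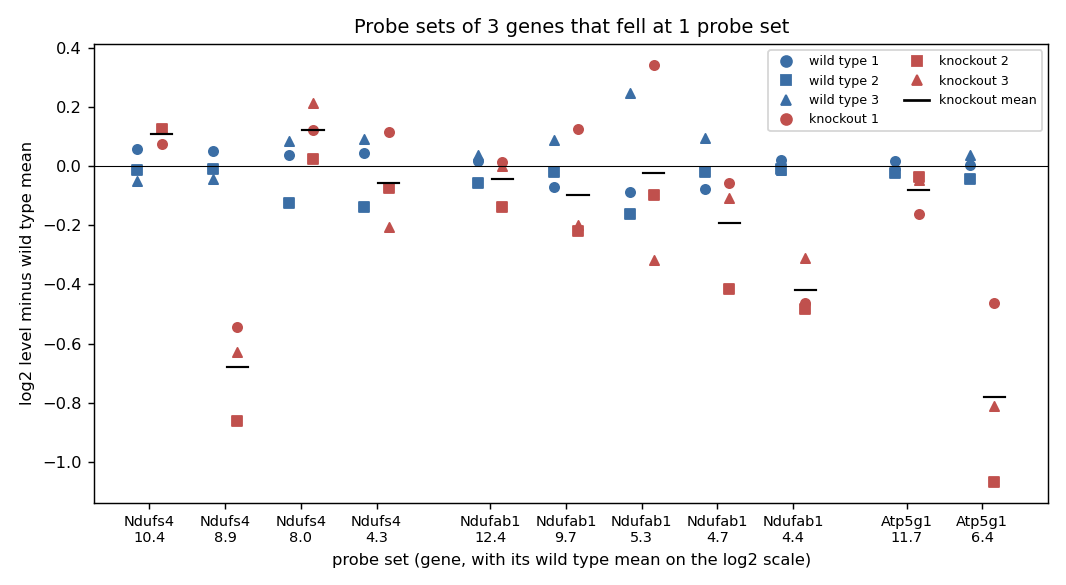
Log2 level of each array minus the wild type mean for every probe set of Ndufs4, Ndufab1 and Atp5g1, ordered by signal within each gene (colours and symbols as in the plot of the Cox6a and Cox7a2 relatives). In each gene 1 probe set lies well below 0 in the knockout, and the arrays of the one of highest signal, drawn first, lie within 0.2 of 0.

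The 15 assembly factors had 25 probe sets, of which 0 passed the test, 12 were positive and 13 negative. Every knockout array lay above every wild type array at 7 and below at 3. Of all probe sets, 11.6% did so in each direction. In the brightest 25% of the array, 21.5% lay above and 19.0% below. Cox19, which acts in the copper supply to complex IV, read 10.12, 10.10 and 10.12 in wild type and 9.78, 9.96 and 9.65 in knockout (−0.32 ± 0.09, adjusted p = 0.128). Cox20, which helps to mature a catalytic subunit of complex IV, differed by −0.23 ± 0.07 (adjusted p = 0.141) and −0.05 ± 0.07. On the other side was Cox15, which makes heme A, at 0.20 ± 0.09 for 1 of 4 probe sets. Its probe set of highest signal differed by −0.08 ± 0.18, and the remaining ones by 0.14 and 0.02. Cox10, which makes the precursor of heme A, differed by 0.15 and 0.18 for 2 of 3, and the copper chaperone Cox17 by 0.15 ± 0.07 for 1 of 2. Cox11, a copper carrier, differed by 0.13 and −0.04 and Cox18, an insertase, by 0.13. Among the complex I assembly factors, Ndufaf2 differed by −0.25 ± 0.08 (adjusted p = 0.166) and Ndufaf3 by 0.13 ± 0.07, both without overlap, and Ndufaf6 by 0.20 ± 0.10. Without knockout replicate 2, Cox19 passed as lower and 1 Cox15 probe set as higher, in a setting where 6.74% of all probe sets passed. Neither passed with any other single array left out.

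Other genes of the respiratory chain were taken from a separate list of electron carriers, assembly factors, coenzyme Q synthesis and dehydrogenases that feed ubiquinone. Of its 58 genes 55 were measured, by 97 probe sets, with a median difference of −0.02. Of the 97, 1 passed as higher and 0 as lower, where 0.884% of all probe sets were called higher and 0.884% lower. The gene that rose was Surf1, an assembly factor of complex IV whose loss causes Leigh syndrome in humans. It read 10.51, 10.48 and 10.48 in wild type and 11.01, 11.00 and 11.10 in knockout, without overlap (0.55 ± 0.07, 1.46-fold, adjusted p = 0.0157). It passed without knockout replicate 1 or 2 (adjusted p = 0.0424 and 0.0094). It did not pass without knockout replicate 3 (0.0684) or wild type replicate 1, 2 or 3 (0.0959, 0.114 and 0.0728). Cycs, cytochrome c, which carries electrons between complexes III and IV, lay lower in every knockout array at all 4 probe sets, by −0.41 to −0.29, with adjusted p between 0.0705 and 0.128. At the probe set of highest signal it read 13.12, 13.02 and 13.05 in wild type and 12.83, 12.63 and 12.84 in knockout. Cyc1, the cytochrome of complex III, read 12.51, 12.48 and 12.43 against 12.50, 12.43 and 12.48, with overlapping groups. Ecsit, a complex I assembly factor, differed by 0.29 ± 0.07 (adjusted p = 0.0787).

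Set side by side by array, the class medians moved little. The median deviation of the 16 core complex I probe sets from the wild type mean was 0.01, −0.03 and 0.02 in the wild type arrays and 0.06, 0.09 and 0.09 in the knockout arrays. For the 31 ATP synthase probe sets it was 0.01, −0.03 and 0.01 in wild type and −0.04, −0.09 and −0.05 in knockout. Complex III stood at 0.04, −0.03 and −0.01 against −0.10, −0.07 and −0.06, and complex IV at 0.01, −0.01 and −0.01 against −0.03, −0.03 and −0.07. In these 4 classes the genotypes did not overlap, in 1 direction for core complex I and in the other for the rest. Core complex I is a part of its complex, whereas the others are whole classes. All 76 complex I probe sets stood at 0.01, −0.02 and 0.01 against 0.01, 0.01 and 0.01, with overlap. For the probe sets taken as core, the median difference was 0.07 in complex III, 0.01 in complex IV and 0.05 in the ATP synthase. Over all probe sets the knockout medians were −0.01, 0.03 and −0.01, so knockout replicate 2 lay above the other arrays there and lowest among the ATP synthase medians. These class medians were described and not tested.

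**Figure D5:**
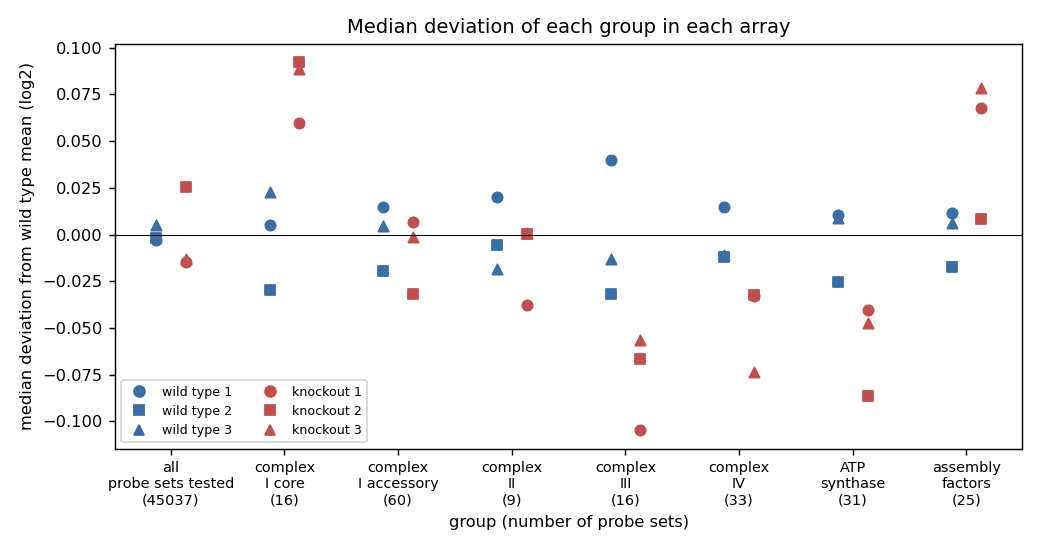
Median over each class of the log2 deviation from the wild type mean, 1 point per array (blue, wild type; red, knockout; symbols give the replicate number; the number of probe sets stands in brackets). Core complex I lies above 0 in the knockout arrays and complexes III and IV and the ATP synthase below, all within about 0.1 of zero.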

How the data were processed

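The deposited values are log2 expression levels per probe set made by the authors with RMA, per the submitters' processing notes; the log base is not stated and was taken as 2 from their range. RMA equalises the arrays and compresses differences at low signal. Array controls (64 probe sets) were left out and the other 45037 fitted together with limma 3.58.1 in R 4.3.3, knockout against wild type without covariates, with Benjamini-Hochberg adjustment over all of them. Errors in the text are standard errors of the log2 difference from this fit, with 3 arrays per group. Symbols came from the platform's annotation: 34945 probe sets had 1 symbol, 932 several and 9160 none; all 98 genes matched RefSeq. The number of arrays limits precision. Genes named were every probe set past the test and all others of its gene, and in each class the 2 with the smallest p in each direction. Core subunits (for complex IV, Cox4i1, Cox5a and Cox5b instead), assembly factors and isoform pairs were also named. From the further list, those past the test and the nearest were named. A few others, such as Tnnt2, were added after their values were seen. The genes and lists were chosen with earlier results of these data known. Same-numbered arrays did not deviate together (r = −0.196, −0.0405 and −0.169). These are deviations from means of 3 arrays, so the values cannot exclude that the numbers pair the samples. The fit was tested on simulated data. Alternatives were another moderation, array weights, renormalization, filters on probe sets, a Y-linked covariate, a replicate block, other thresholds and leaving out arrays; leaving out both arrays numbered 2 was chosen after seeing the data.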

Additional observations from a re-analysis of the deposited data

How the results depend on the processing

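With 3 arrays per group, most calls outside Cox6a2 depended on the setting. Both Cox6a2 probe sets passed the test in every setting that kept them (16 and 14). Leaving out 1 array gave 2 to 10 probe sets higher and 0 to 6 lower among the 197, and 65 to 3037 past the test over all probe sets; the highest counts came without knockout replicate 2, and the lowest over all came without wild type replicate 2. Without wild type replicate 1, 2 or 3 or knockout replicate 3, 2 were higher and 0 lower. The replicate block gave 2 higher, 0 lower and 154 over all. Trended robust moderation gave 11, 9 and 1770, array weights 13, 7 and 4205, and the Y-linked covariate 2, 1 and 441. Without both arrays numbered 2 there were 2, 0 and 314, and at an adjusted p under 0.01 2, 0 and 79. At an adjusted p under 0.1 there were 6 higher, 6 lower and 2035 over all. With 1 probe set per gene 2 were higher and 1 lower (3.06%, against 4.17% of all probe sets in that fit). Without probe sets of possible cross-hybridisation 2 were higher and 3 lower (3.45% against 1.70%). With array medians centred 4 were higher and 1 lower (2.54% against 1.51%). Alternatives that fitted fewer samples or probe sets gave lower counts in some cases and higher counts in others, and the cause was not tested. Class medians moved as follows. With 1 probe set per gene they were 0.0251 (complex I), 0.0381 (complex II), −0.0818 (ATP synthase) and 0.0342 (the 3 other genes). Without the dimmest 25% they were 0.0173 (complex I), 0.0917 (assembly factors) and 0.34 (other genes). Without probe sets of possible cross-hybridisation they were 0.0255 (complex II) and 0.13 (other genes), and with array weights 0.0487 (assembly factors). Without both arrays numbered 2 they were −0.11 (complex III), −0.0333 (complex IV), 0.0538 (assembly factors) and 0.35 (other genes). Leaving out 1 array gave −0.0089 to 0.0161 (complex I), −0.0352 to 0.0183 (complex II), −0.11 to −0.0338 (complex III), −0.0679 to −0.0335 (complex IV), −0.0739 to −0.0356 (ATP synthase), 0.0001 to 0.0590 (assembly factors) and 0.14 to 0.33 (other genes). The sign turned for an Sdhc probe set without wild type replicate 3 (−0.0035, in a range of −0.0035 to 0.0931 with 1 array left out) and for an Sdhd probe set without knockout replicate 2 (0.0243, in a range of −0.1623 to 0.0243) and without both arrays numbered 2 (0.0266). Low signal limits the Ndufab1 probe set that fell.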
